A study of Mus musculus with 8 samples.

Results

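Receptor protein tyrosine phosphatases are single-pass membrane proteins with a cell adhesion-like outer part and 1 or 2 phosphatase domains inside the cell. They remove phosphate from tyrosines, and so counter the tyrosine kinases at junctions, growth factor receptors and focal contacts. The 10 genes described here were taken by symbol, through the Entrez identifiers of the count tables, and make up 10 of the 27164 genes in those tables. They were selected on measured values, their CPM (counts scaled to the same library total) over the 4 populations and 2 batches being known. Their levels and differences are therefore given as a description, with standard errors and no p-values.

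The libraries came from basal cells sorted from the mammary glands of untreated 10-week-old C57BL/6 females carrying Lgr5-GFP-IRES-CreERT2, a knock-in that reports the Wnt pathway receptor Lgr5 as green fluorescence. Cells were gated on Lgr5 and on the tetraspanin Tspan8 (T8) into 4 populations: both markers (Lgr5+T8hi), Tspan8 alone (Lgr5-T8hi), Lgr5 alone (Lgr5+T8-) and neither (Lgr5-T8-). Each had 2 libraries, 1 per batch. All 4 populations carried the reporter allele, so none was wild type at Lgr5. The labels do not say whether libraries came from separate mice or pools. The p-values below thus reflect only the spread between libraries left after a batch term was fitted, and that spread may be technical.

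Library totals ran from 24571300 to 38384875 counts, and 3 counts corresponded to 0.0799 to 0.120 CPM. Tspan8, the gated gene, stood at 275 ± 19.6 CPM in Lgr5+T8hi cells and at 158 ± 11.7 CPM in Lgr5-T8hi cells, against 8.70 ± 2.66 CPM in Lgr5+T8- and 3.76 ± 0.851 CPM in Lgr5-T8- cells (SD, n = 2 each). Lgr5 stood at 184 ± 13.5 CPM in Lgr5+T8hi cells and 199 ± 19.4 CPM in Lgr5+T8- cells, against 124 ± 6.62 CPM in Lgr5-T8hi and 54.4 ± 5.54 CPM in Lgr5-T8- cells (SD, n = 2 each). Lgr5 transcript was thus lower in the Lgr5- populations but not absent, and the marker names used here refer to the gates. The 8 basal markers summed to between 15310 and 23429 CPM in every library, with none at 0. The 12 luminal markers summed to between 1084 and 2359 CPM, also with none at 0.

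The 10 genes fall into 4 subfamilies by their outer domains. Ptprd, Ptprf (LAR) and Ptprs are the LAR-type receptors, which bind heparan and chondroitin sulfate proteoglycans and, in neurons, synaptic adhesion proteins. Ptprk, Ptprm, Ptprt and Ptpru carry a MAM domain and are found at cell contacts, where several of them bind the same protein on the neighbouring cell and act on cadherin and catenin complexes. Ptprj (DEP-1) acts on receptor kinases and on Src. Ptprg and Ptprz1 have a carbonic anhydrase-like domain and bind contactins, and Ptprz1 also binds pleiotrophin and midkine. In GRCm38.p6 coordinates of RefSeq, Ptprd spans chr4:75941237-78211742, Ptprt chr2:161521988-162661147, Ptpru chr4:131768457-131838306, Ptprj chr2:90429756-90580694 and Ptprz1 chr6:22875315-23052916.

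Upstream sequence is shown for Ptprt, the gene with the widest difference between Lgr5+ and Lgr5- libraries, and for Ptpru, a member of the same subfamily that differed the other way. Each run is the 250 bases before the start annotated for the promoter, 5′ to 3′ on the gene's strand. The sequence is from RefSeq for GRCm38.p6, with CG dinucleotides in capitals. The Ptprt window is chr2:162661148-162661397 and the Ptpru window chr4:131838279-131838528, both on the minus strand. As the Ptpru span given above ends at 131838306, the last bases of its window lie within that span.
Ptprt: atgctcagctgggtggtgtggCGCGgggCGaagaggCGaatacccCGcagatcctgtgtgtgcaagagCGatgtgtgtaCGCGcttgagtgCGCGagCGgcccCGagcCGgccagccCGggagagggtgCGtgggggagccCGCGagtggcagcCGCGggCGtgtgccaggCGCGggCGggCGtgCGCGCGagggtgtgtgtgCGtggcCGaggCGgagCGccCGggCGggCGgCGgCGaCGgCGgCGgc
Ptpru: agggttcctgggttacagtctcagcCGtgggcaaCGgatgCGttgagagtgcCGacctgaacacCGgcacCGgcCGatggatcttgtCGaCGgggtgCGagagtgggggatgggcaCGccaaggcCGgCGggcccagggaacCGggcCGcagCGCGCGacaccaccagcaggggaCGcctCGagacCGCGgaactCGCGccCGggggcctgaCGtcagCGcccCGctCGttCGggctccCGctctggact
The Ptprt window held 39 CG dinucleotides, more than 98.4% of the 32851 promoters in the table, and the Ptpru window held 31, more than 94.8%. The median promoter held 6. Both windows are thus rich in CG, at 76.4% G+C for Ptprt and 71.2% for Ptpru. The GC box letters GGGCGG, counted on both strands with overlapping matches counted separately, occurred 3 times in the Ptprt window and 0 times in the Ptpru window, and 32.7% of all promoters hold them. The TCF/LEF core letters CTTTGAT, present on either strand in 3.21% of all promoters, were absent from the windows of the 9 genes with an entry, as were the letters TATAAA, present in 12.4%.

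Per unit of exon length, the LAR-type receptor Ptprs was the most abundant of the 10, at a mean of 64.4 RPKM (CPM per kilobase of exon) over the 8 libraries. Ptprf followed at 41.8, Ptprk at 32.7, Ptpru at 18.8, Ptprg at 18.2 and Ptprm at 10.5 RPKM. The others were low: Ptprz1 averaged 4.69, Ptprj 3.36, Ptprt 1.87 and Ptprd 1.49 RPKM. On this scale Ptprs stood at the 93.06th percentile of the 16526 genes tested and Ptprd at the 27.25th. The LAR-type receptors together took 51.4 to 57.1% of the summed RPKM of the 10 genes in a library, and the MAM-domain receptors 29.8 to 34.7%. Ptprg with Ptprz1 took 9.77 to 14.2%, and Ptprj 1.36 to 2.20%. The share of Ptprg with Ptprz1 and that of Ptprj were each highest in Lgr5-T8- cells in both batches. The LAR-type share was higher in batch 2 in every population. Among single genes, the widest relative differences between populations lay in Ptprd and Ptprt, which have the lowest levels.

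**Figure D1:**
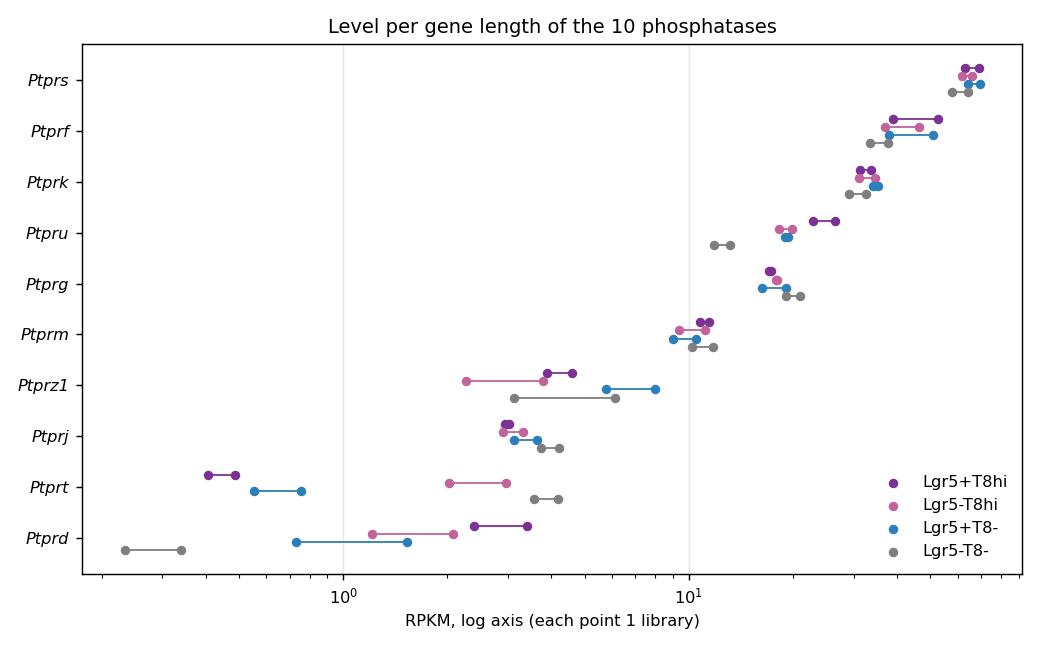
Level of each of the 10 phosphatase genes in every library, in RPKM on a log axis, ordered by mean. Ptprs, at a mean of 64.4 RPKM, lies far above Ptprd, at 1.49 RPKM, and the points of Ptprd and Ptprt are the most spread out between populations.

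Ptprd, a LAR-type receptor, ranged most over the populations, with a highest population mean 10.1 times the lowest. It stood at 28.9 and 20.4 CPM in the batch 1 and batch 2 libraries of Lgr5+T8hi cells, 17.7 and 10.3 CPM in Lgr5-T8hi cells, 13.0 and 6.22 CPM in Lgr5+T8- cells, and 2.88 and 1.98 CPM in Lgr5-T8- cells. The order of the 4 populations was the same in both batches. The Lgr5+T8hi libraries were the highest and the Lgr5-T8- libraries the lowest with no overlap, while the libraries of the 2 single-marker populations overlapped. The lowest values rested on 95 and 54 counts. Every population was lower in batch 2 than in batch 1, by 0.50 to 1.05 on the log2 scale.

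Averaged over Lgr5 status, Ptprd was 1.96 ± 0.11 higher (log2, SE) in T8hi than in T8- cells, a 3.89-fold difference. Averaged over Tspan8 status, it was 1.40 ± 0.11 higher in Lgr5+ than in Lgr5- cells, or 2.63-fold. The 2 differences did not add up on the log scale. The T8hi to T8- difference was 1.15 and 1.70 in the 2 batches within Lgr5+ cells and 2.59 and 2.34 within Lgr5- cells, which gave an interaction of -1.11 ± 0.22. Against Lgr5-T8- cells, the mean of the 3 populations gated for at least 1 marker was 2.61 ± 0.15 higher. The summed luminal markers had the same population order as Ptprd in both batches, at 2359 and 1742 CPM in Lgr5+T8hi cells, 2189 and 1549 CPM in Lgr5-T8hi cells, 2076 and 1353 CPM in Lgr5+T8- cells, and 1426 and 1084 CPM in Lgr5-T8- cells. Those markers were also lower in batch 2 in every population, and their part in the Ptprd values was not tested. In bulk libraries, fewer cells of a type and less RNA per cell cannot be told apart.

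The other LAR-type receptors were close to even. Ptprs, a receptor for chondroitin and heparan sulfate chains, lay between 402 and 485 CPM in all 8 libraries, and its highest population mean was 1.10 times the lowest. Ptprf, which acts at cell-matrix and cell-cell contacts, stood at 297 and 401 CPM in Lgr5+T8hi, 282 and 354 CPM in Lgr5-T8hi, 290 and 389 CPM in Lgr5+T8-, and 257 and 288 CPM in Lgr5-T8- cells. The Lgr5-T8- population was the lowest for Ptprf in each batch, although its batch 2 library lay above the batch 1 library of Lgr5-T8hi cells. Ptprf was higher in batch 2 in every population, by 0.17 to 0.43 on the log2 scale. Its mean over the 3 marker-gated populations was 0.29 ± 0.08 above that in Lgr5-T8- cells (log2, SE).

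**Figure D2:**
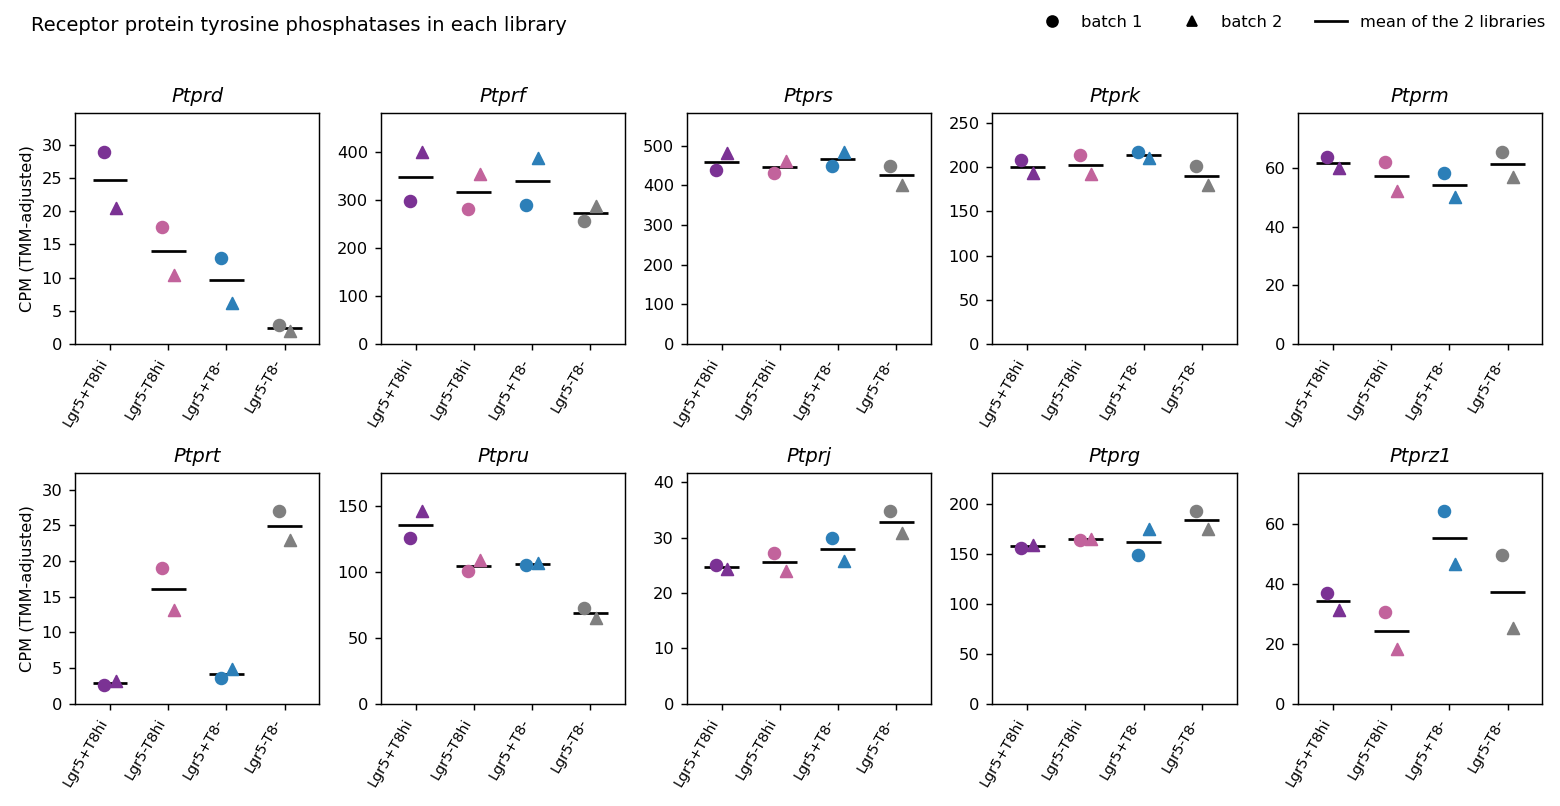
CPM of the 10 phosphatase genes in every library, by population, with batch 1 as circles, batch 2 as triangles and a line at the mean of the 2 libraries. Ptprd was highest in Lgr5+T8hi and lowest in Lgr5-T8- cells, Ptprt was low in all 4 Lgr5+ libraries, and Ptprs, Ptprk and Ptprm were nearly level.

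Ptprt, a MAM-domain receptor best known in the brain, separated the libraries by Lgr5 status. It stood at 2.62 and 3.14 CPM in Lgr5+T8hi cells and 3.56 and 4.86 CPM in Lgr5+T8- cells, against 19.1 and 13.1 CPM in Lgr5-T8hi cells and 27.0 and 23.0 CPM in Lgr5-T8- cells. The 4 Lgr5+ libraries, with 83 to 122 counts, all lay below the 4 Lgr5- libraries, with 491 to 890 counts. Within each Lgr5 status the T8hi libraries were below the T8- libraries, again without overlap. Ptprt was 2.53 ± 0.16 lower in Lgr5+ than in Lgr5- cells (log2, SE), or 0.173 times the level. The Lgr5+ minus Lgr5- difference was -2.83 and -2.04 in the 2 batches within T8hi cells, and -2.90 and -2.23 within T8- cells, with an interaction of 0.09 ± 0.32. Between T8hi and T8- cells the difference was smaller, at -0.60 ± 0.16. None of the summed levels of the 8 cell type marker lists (basal, luminal, fibroblast, endothelial, pericyte, immune, Schwann and erythroid) separated the 4 Lgr5+ from the 4 Lgr5- libraries. Within each batch and Tspan8 status, however, the luminal sum was higher in the Lgr5+ library in all 4 pairs. Between Lgr5+ and Lgr5- cells, 5 of 12 luminal markers were called higher and 2 lower, 3 of 8 basal markers higher and 1 lower, 3 of 8 fibroblast markers higher and 2 lower, 3 of 7 pericyte markers lower and 2 of 8 Schwann and glial markers lower. The part of these markers in the Ptprt values was not tested. Over all genes, 4.23% were called higher and 4.86% lower between Lgr5+ and Lgr5- cells.

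Ptpru, another MAM-domain receptor, had the opposite order. It stood at 126 and 146 CPM in Lgr5+T8hi, 100.2 and 109 CPM in Lgr5-T8hi, 105 and 107 CPM in Lgr5+T8-, and 72.3 and 65.0 CPM in Lgr5-T8- cells. The Lgr5+T8hi libraries were the highest and the Lgr5-T8- libraries the lowest without overlap, and the single-marker populations overlapped. The T8hi to T8- difference was 0.48 ± 0.07 and the Lgr5+ to Lgr5- difference 0.50 ± 0.07 (log2, SE), so each marker went with about the same gain. The mean of the 3 marker-gated populations was 1.66 times the level in Lgr5-T8- cells, at 0.73 ± 0.09 on the log2 scale. In both batches all 4 within-status differences were positive, from 0.26 to 0.75. Ptpru had the same top and bottom population as Ptprd, and so as the summed luminal markers given above. The part of those markers in the Ptpru values was not tested. Ptpru was higher in batch 2 in 3 of the 4 populations.

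The remaining MAM-domain receptors showed little difference between populations. Ptprk lay between 180 and 217 CPM over all libraries, and Ptprm, which binds itself between neighbouring cells, between 50.1 and 65.6 CPM. The highest population mean was 1.12 times the lowest for Ptprk and 1.14 times for Ptprm. Averaged over the other marker, no difference of either gene between T8hi and T8- or between Lgr5+ and Lgr5- cells exceeded 0.08 on the log2 scale, with standard errors of 0.06. The interaction was 0.29 ± 0.12 for Ptprm and -0.18 ± 0.13 for Ptprk, neither of them called. Libraries of populations next to each other in the order of means overlapped for both genes. Within this subfamily, then, Ptprt and Ptpru moved in opposite directions with Lgr5 status while the averaged Lgr5 differences of the 2 other genes were under 0.1.

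Ptprj, which removes phosphate from receptor kinases, was highest in the cells without either marker. It stood at 25.0 and 24.3 CPM in Lgr5+T8hi, 27.3 and 23.9 CPM in Lgr5-T8hi, 30.0 and 25.8 CPM in Lgr5+T8-, and 34.8 and 30.8 CPM in Lgr5-T8- cells. The Lgr5-T8- libraries were above all others. The Lgr5-T8hi libraries overlapped those of both other populations, and the Lgr5+T8hi libraries lay just below the Lgr5+T8- libraries. The difference between T8hi and T8- cells was -0.27 ± 0.07, and that between the mean of the marker-gated populations and Lgr5-T8- cells -0.33 ± 0.08 (log2, SE).

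The carbonic anhydrase-like receptors differed from each other. Ptprz1, the receptor of pleiotrophin, stood at 37.0 and 31.4 CPM in Lgr5+T8hi, 30.6 and 18.3 CPM in Lgr5-T8hi, 64.2 and 46.6 CPM in Lgr5+T8-, and 49.5 and 25.1 CPM in Lgr5-T8- cells. It was thus the one gene whose T8hi to T8- difference and Lgr5+ to Lgr5- difference were both over 0.5 in size and of opposite sign, at -0.64 ± 0.11 and 0.57 ± 0.11 (log2, SE). In every batch it was highest in Lgr5+T8- and lowest in Lgr5-T8hi cells. Lgr5-T8- libraries, however, spread over the range of both Lgr5+T8hi libraries, and every population was lower in batch 2, by 0.24 to 0.98. The Ptprz1 libraries overlapped between T8hi and T8- cells. The sums of the 8 basal markers did not overlap, at 18438 and 15310 CPM in Lgr5+T8hi cells and 17580 and 15877 CPM in Lgr5-T8hi cells, against 23429 and 20139 CPM in Lgr5+T8- and 22086 and 20349 CPM in Lgr5-T8- cells. Markers of other cell types lay the other way. The 7 pericyte markers summed to 137 to 179 CPM in T8hi and 67.0 to 134 CPM in T8- libraries, and the 8 Schwann and glial markers to 227 to 275 CPM in T8hi and 177 to 211 CPM in T8- libraries, without overlap. The 8 fibroblast markers summed to 724 to 1237 CPM in T8hi and 350 to 742 CPM in T8- libraries, which overlapped slightly. The sums of the luminal, endothelial, immune and erythroid markers overlapped more widely. Between T8hi and T8- cells, 8 of 12 luminal, 6 of 8 fibroblast, 6 of 7 pericyte, 6 of 9 immune, 4 of 9 endothelial, 4 of 8 Schwann and glial and 1 of 3 tested erythroid markers were called higher by edgeR, while 4 of 8 basal markers were called lower. The part of these markers in the Ptprz1, Ptprj and other Tspan8 differences was not tested. Over all genes, 9.13% were called higher and 5.52% lower between T8hi and T8- cells. Ptprg lay between 150 and 193 CPM, with differences of -0.10 ± 0.07 for Tspan8 and -0.12 ± 0.07 for Lgr5.

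**Figure D3:**
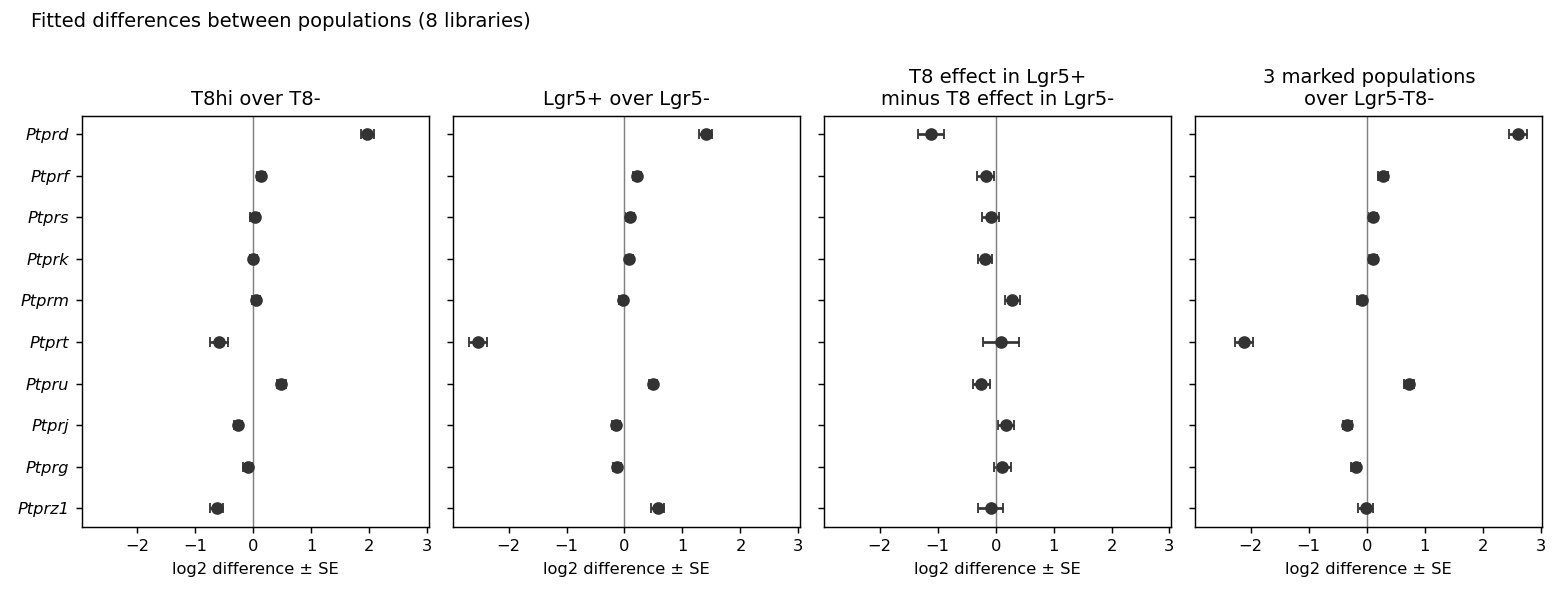
Log2 differences of the 10 phosphatase genes, with bars for 1 SE, for T8hi over T8- cells, Lgr5+ over Lgr5- cells, the interaction, and the 3 marker-gated populations over Lgr5-T8- cells. Ptprd lies to the right at 1.96, 1.40 and 2.61 and, in the interaction panel, to the left at -1.11, and Ptprt lies to the left at -0.60, -2.53 and -2.11.

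Under edgeR's quasi-likelihood test with a batch term, at a Benjamini-Hochberg adjusted p of 0.05 over all 16526 genes, 14.6% of genes were called between T8hi and T8- cells, 9.13% higher and 5.52% lower. Of the 10 phosphatases 2 were called higher (Ptprd and Ptpru) and 3 lower (Ptprt, Ptprj and Ptprz1). Between Lgr5+ and Lgr5- cells 9.09% of genes were called, 4.23% higher and 4.86% lower, and so were 3 of the phosphatases higher (Ptprd, Ptpru and Ptprz1) and 1 lower (Ptprt). The interaction called 2.55% of genes, 2.18% positive and 0.363% negative, and 1 phosphatase, Ptprd, negative. Against Lgr5-T8- cells, 14.5% of genes were called in the mean of the other populations, 7.01% higher and 7.45% lower, with 3 phosphatases higher (Ptprd, Ptprf and Ptpru) and 2 lower (Ptprt and Ptprj). As the genes were chosen with these values known, nothing is read from those counts. The median log2 difference of the 10 genes was 0.01 for Tspan8 and 0.08 for Lgr5, beside -0.02 and 0.01 over all genes.

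Some of these calls hung on single libraries or on the batch term. The alternative settings reuse the 8 libraries whose values were known when the genes were chosen. A call that held under them is therefore a description of stability and not independent support. The Tspan8 and marker-gated differences of Ptprd and Ptpru, and the Lgr5 and marker-gated differences of Ptprt, were called under all 15 alternative settings. The Tspan8 call of Ptprt was lost without the batch term and without any of 6 libraries (all but batch 1 of Lgr5-T8hi and of Lgr5+T8-), with differences of -0.75 to -0.42. That of Ptprj was lost without the batch term, without batch 1 of Lgr5+T8hi or of Lgr5+T8-, or without either Lgr5-T8hi library. The marker-gated call of Ptprj was lost without the batch term or batch 1 of Lgr5-T8-, and that of Ptprf without the batch term or any of 7 libraries. The Ptprd interaction was lost without the batch term, without either Lgr5+T8hi library, or without the batch 1 library of any other population. The Lgr5 calls of Ptprd, Ptpru and Ptprz1, and the Tspan8 call of Ptprz1, were lost only without the batch term.

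Ptprt and Ptprd, the least abundant pair, changed place between populations. Per length, the Ptprt to Ptprd ratio was 0.120 and 0.203 in Lgr5+T8hi cells, 1.42 and 1.67 in Lgr5-T8hi cells, 0.362 and 1.03 in Lgr5+T8- cells, and 12.4 and 15.3 in Lgr5-T8- cells. Ptprd thus exceeded Ptprt in both libraries of cells with both markers. Per length, Ptprt exceeded Ptprd more than 10-fold in both libraries of cells with neither. In the Lgr5+T8- libraries Ptprd was ahead in batch 1, and in batch 2 the levels per length were nearly equal. In CPM, not divided by length, the ratios in Lgr5+T8- cells were 0.274 and 0.782, both on the side of Ptprd. The CPM ratios in Lgr5-T8- cells were 9.37 and 11.6.

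**Figure D4:**
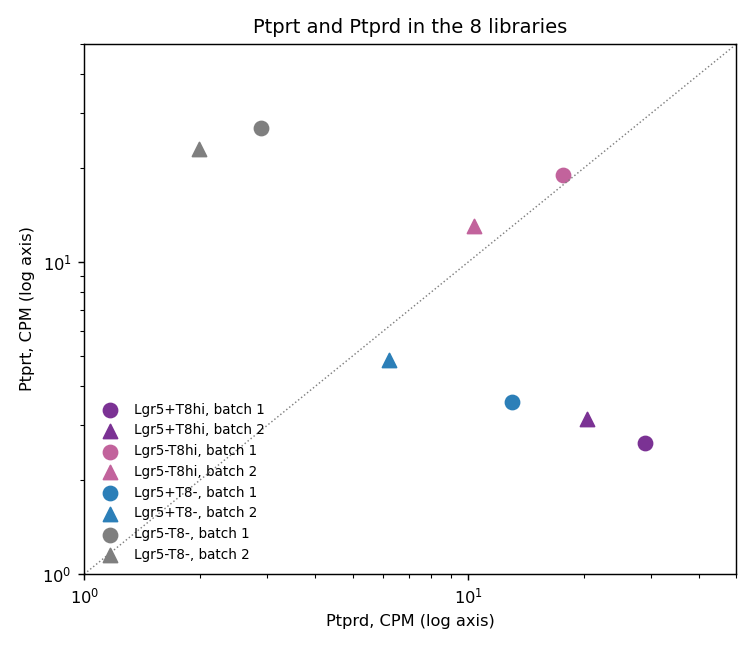
Ptprt against Ptprd level in each library, in CPM on log axes, with 1 point per library and a dotted line where both are equal. The Lgr5+T8hi libraries lie at high Ptprd (20.4 and 28.9 CPM) and low Ptprt, and the Lgr5-T8- libraries at low Ptprd (1.98 and 2.88 CPM) and high Ptprt.

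The genes whose pattern was most like that of the 3 widest-ranging phosphatases were found by Pearson's r over the 8 libraries on log2 CPM centred on each batch, among 12931 genes, as a description. For Ptprd they were Spint1, a membrane serine protease inhibitor of epithelia, at r = 0.999, then Ebf4, an early B-cell factor family gene, and Muc1, a transmembrane mucin of epithelial surfaces, both at 0.995. For Ptprt they were the potassium channel gene Kcnk1 and the serine protease gene Prss12, both at 0.992, and Vps9d1 at 0.989. For Ptprz1 they were Epb41l2, a membrane skeleton protein gene, at 0.995, Sync at 0.978 and the spectrin-binding adducin gene Add1 at 0.974. Pearson's r does not measure the size of a difference, and each of these genes ranged less between populations than its phosphatase. Population means of Vps9d1 ran from 20.2 to 22.3 CPM, beside 2.88 to 25.0 CPM for Ptprt. Those of Ebf4 ran from 10.3 to 17.6 CPM, beside 2.43 to 24.6 CPM for Ptprd. For Add1 they ran from 191 to 216 CPM, beside 24.4 to 55.4 CPM for Ptprz1. The points share libraries and depth, and the best of so many genes will correlate highly.

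Among the known ligands and partners of Ptprz1 and Ptprg, 9 of 14 listed genes passed the filter on low counts. The test called 4 higher and 1 lower for Tspan8, 4 higher and 2 lower for Lgr5, and 3 higher and 1 lower against Lgr5-T8- cells. Over all genes, 14.6%, 9.09% and 14.5% were called in these comparisons. Ptn, encoding pleiotrophin, stood at 217 and 203 CPM in Lgr5+T8hi, 153 and 156 CPM in Lgr5-T8hi, 165 and 163 CPM in Lgr5+T8-, and 109 and 135 CPM in Lgr5-T8- cells. It rose by 0.35 ± 0.07 with Tspan8 (edgeR adjusted p = 0.00725) and by 0.44 ± 0.07 with Lgr5 (adjusted p = 0.00311). Ptn was therefore highest in Lgr5+T8hi cells, whereas its receptor Ptprz1 was highest in Lgr5+T8- cells. Mdk, encoding midkine, rose by 0.48 ± 0.08 in Lgr5+ cells (edgeR adjusted p = 0.00233). Like Ptprz1, Mdk was highest in Lgr5+T8- cells in both batches, at 131 and 100.1 CPM. In Lgr5+T8hi cells it stood at 107 and 88.1 CPM. Tnc, the matrix protein tenascin-C, fell by 0.86 ± 0.11 in T8hi cells (edgeR adjusted p = 0.00114), the same direction as Ptprz1. It too was highest in Lgr5+T8- cells in both batches, at 60.6 and 51.9 CPM. Nrcam, a neuronal-type cell adhesion molecule, had the population order Lgr5+T8hi, Lgr5+T8-, Lgr5-T8hi and Lgr5-T8- in both batches, with means of 25.3, 18.7, 15.4 and 6.28 CPM. It rose by 0.90 ± 0.10 with Tspan8 (edgeR adjusted p = 6.21e-05) and by 1.13 ± 0.10 with Lgr5 (adjusted p = 1.97e-05). L1cam, another adhesion molecule of this class, rose by 1.49 ± 0.27 with Tspan8 (edgeR adjusted p = 0.00984) and fell by 1.72 ± 0.27 with Lgr5 (adjusted p = 0.0079). Ptn and Nrcam shared their top and bottom populations with the summed luminal markers, whose part in their values was not tested. All of the calls given for these ligands and partners held without any single library. Without the batch term, those of L1cam held and the others named were lost.

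Of 16 synaptic adhesion partners of the LAR-type receptors, 9 were tested. Over all genes, 14.6% were called for Tspan8, 9.09% for Lgr5 and 14.5% against Lgr5-T8- cells. In this list the calls were 0 higher and 3 lower for Tspan8, 0 higher and 5 lower for Lgr5, and 0 higher and 3 lower against Lgr5-T8- cells. Lrfn5 and Slitrk6 are among those called for Lgr5, and both passed the low-count filter only through libraries of populations where they were high, so these counts do not support a direction of the list. Il1rap, an interleukin 1 receptor subunit that binds Ptprd in neurons, stood at 24.2 and 32.4 CPM in Lgr5+T8hi, 42.4 and 48.1 CPM in Lgr5-T8hi, 30.6 and 46.7 CPM in Lgr5+T8-, and 57.3 and 67.0 CPM in Lgr5-T8- cells. It fell by 0.45 ± 0.08 with Tspan8 (edgeR adjusted p = 0.00225) and by 0.70 ± 0.08 with Lgr5 (adjusted p = 0.000164), the reverse of Ptprd. Ntrk3, the neurotrophin receptor TrkC and a partner of Ptprs in neurons, stood at 45.6 to 66.8 CPM in the 3 marker-gated populations, against 94.7 and 91.9 CPM in Lgr5-T8- cells. Relative to those cells it fell by 0.79 ± 0.09 in the marker-gated populations (edgeR adjusted p = 0.000108). Its Lgr5 fall of 0.42 ± 0.08 (adjusted p = 0.00718) was lost without batch 1 of Lgr5+T8hi or of Lgr5-T8hi. Lrfn5, a synaptic adhesion gene, reached at most 0.426 CPM in any marker-gated library, 1 of them below its 3-count floor, against 4.67 and 5.37 CPM in Lgr5-T8- cells. As it passed the filter only through the Lgr5-T8- libraries, no test of it is given. The Il1rap and Ntrk3 calls were lost without the batch term.

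**Figure D5:**
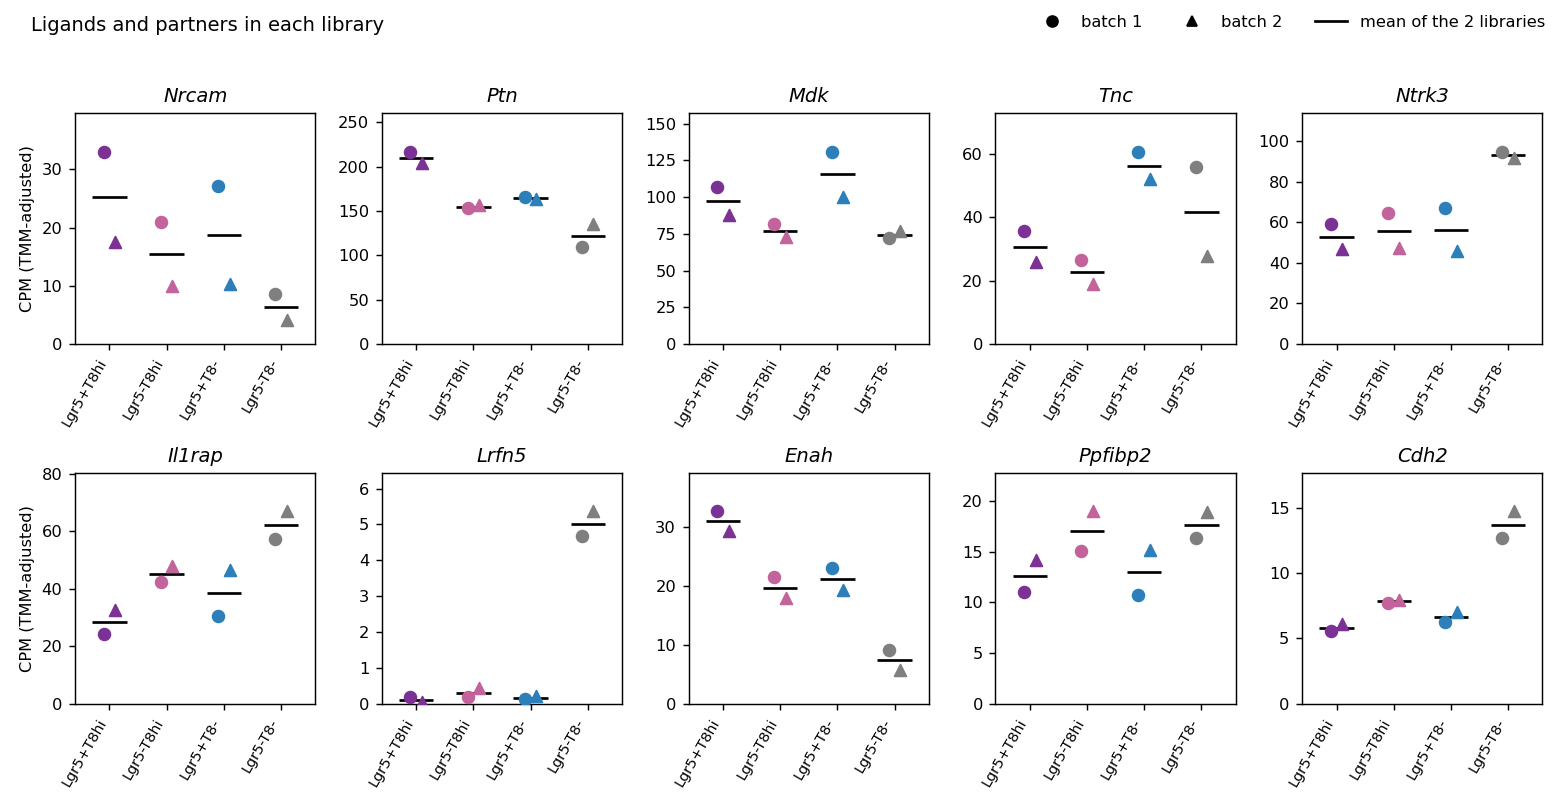
CPM of 10 ligand, partner and substrate genes of the phosphatases in every library, with a line at the mean of the 2 libraries. Nrcam, Ptn and Enah were highest in Lgr5+T8hi cells, at means of 25.3, 210 and 30.9 CPM, and Ntrk3, Il1rap, Lrfn5 and Cdh2 were highest in Lgr5-T8- cells.

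Proteoglycans, the matrix and membrane ligands of the LAR-type receptors, were called in both directions. Of 17 tested, 1 was higher and 2 lower for Tspan8, 4 higher and 2 lower for Lgr5, and 2 higher and 3 lower against Lgr5-T8- cells. The shares called over all genes were 14.6%, 9.09% and 14.5%. Gpc4, a glypican, fell by 0.36 ± 0.06 in T8hi cells (edgeR adjusted p = 0.00182), with 114 and 116 CPM in Lgr5+T8hi cells and 108 and 115 CPM in Lgr5-T8hi cells, against 151 and 152 CPM in Lgr5+T8- and 142 and 139 CPM in Lgr5-T8- cells. Acan, the cartilage proteoglycan aggrecan, stood at no more than 0.494 CPM in the marker-gated populations, against 1.88 and 1.36 CPM in Lgr5-T8- cells, a fall of 2.21 ± 0.30 (edgeR adjusted p = 0.00031). Both calls held without any single library, and without the batch term that of Gpc4 was lost.

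Inside the cell, liprins and actin regulators bind the LAR-type receptors. All 16 listed genes were tested, with 2 called higher and 1 lower for Tspan8, 1 higher and 2 lower for Lgr5, and 1 higher and 2 lower against Lgr5-T8- cells. Among all genes the called shares were 14.6%, 9.09% and 14.5%. Ppfia2, called higher for Tspan8, stood at 0.432 and 0.378 CPM in Lgr5+T8hi cells and at most 0.160 CPM elsewhere. It passed the low-count filter only through the Lgr5+T8hi libraries, so the calls do not support a direction of the list. Enah (Mena), an actin regulator that binds LAR-type receptors, stood at 32.6 and 29.2 CPM in Lgr5+T8hi, 21.5 and 17.8 CPM in Lgr5-T8hi, 23.0 and 19.3 CPM in Lgr5+T8-, and 9.06 and 5.62 CPM in Lgr5-T8- cells. It rose by 0.99 ± 0.09 with Tspan8 (edgeR adjusted p = 2.42e-05) and by 1.10 ± 0.09 with Lgr5 (adjusted p = 1.97e-05), with the top and bottom populations of Ptprd and Ptpru. Those are also the top and bottom populations of the summed luminal markers, whose part in the Enah values was not tested. The 2 Enah calls held under all 15 settings. The liprin beta gene Ppfibp2 fell by 0.45 ± 0.08 in Lgr5+ cells (edgeR adjusted p = 0.00497), a call lost only without the batch term.

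Junction proteins and kinases on which these phosphatases act made up a list of 20, all tested. The calls were 2 higher and 1 lower for Tspan8, 1 higher and 1 lower for Lgr5, and 1 higher and 1 lower against Lgr5-T8- cells, beside the 14.6%, 9.09% and 14.5% of all genes called. Cdh2 (N-cadherin) stood at 5.56 and 6.09 CPM in Lgr5+T8hi, 7.74 and 7.93 CPM in Lgr5-T8hi, 6.24 and 7.02 CPM in Lgr5+T8-, and 12.7 and 14.7 CPM in Lgr5-T8- cells. It fell by 0.74 ± 0.10 with Lgr5 (edgeR adjusted p = 0.000534) and by 1.03 ± 0.11 in the marker-gated populations (adjusted p = 4.46e-05), calls held under all 15 settings. Pdgfrb, a growth factor receptor, rose by 0.43 ± 0.08 in T8hi cells (edgeR adjusted p = 0.00225). It is also a pericyte marker and is counted in the pericyte marker sums, which were higher there. The Pdgfrb call was lost without the batch term, and the part of pericytes in it was not tested.

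The rest of the phosphatase family stands beside 14.6% of all genes called for Tspan8 and 9.09% for Lgr5. Of 8 other receptor-type phosphatases tested, Ptprc (CD45, of white blood cells) rose and Ptpre fell with Tspan8, and 0 were called for Lgr5 by edgeR, DESeq2 or limma-voom, with 3 at an unadjusted p under 0.05 in edgeR. Ptprc stood at 5.91 and 8.51 CPM in Lgr5+T8hi cells and 2.42 and 2.02 CPM in Lgr5-T8hi cells, against 1.04 and 1.12 CPM in Lgr5+T8- and 1.36 and 1.58 CPM in Lgr5-T8- cells, a rise of 1.66 ± 0.18 (edgeR adjusted p = 7.08e-05). The 9 immune markers, of which Ptprc is 1, summed to 67.7 and 121 CPM in Lgr5+T8hi cells and 42.9 and 66.3 CPM in Lgr5-T8hi cells, against 30.6 and 64.8 CPM in Lgr5+T8- and 35.4 and 82.3 CPM in Lgr5-T8- cells. The part of immune cells in the Ptprc difference was not tested. Ptpre fell by 0.40 ± 0.07 in T8hi cells (edgeR adjusted p = 0.00335), a call lost without the batch term. Of 15 non-receptor phosphatases tested, 3 were called higher and 0 lower with Tspan8, among them Ptpn18 by 1.43 ± 0.18 (edgeR adjusted p = 0.000242) and the lymphocyte phosphatase Ptpn22 by 1.27 ± 0.20 (adjusted p = 0.00107), both from levels of at most 3.46 CPM. With Lgr5, 1 was called higher, Ptpn6 by 0.34 ± 0.09 (edgeR adjusted p = 0.0368), and 0 lower. The Ptpn6 call was lost without the batch term, with DESeq2 and without any of 7 libraries, all but batch 2 of Lgr5-T8-.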

How the data were processed

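RNA from sorted cells was sequenced single-end, per the labels' protocols. The authors deposited raw counts of reads per gene with gene lengths, not normalized. Tools in the submitters' processing notes are featureCounts, limma 3.24.14, edgeR 3.10.2 and CASAVA 1.8.2, and the genome is mm10 (GRCm38). The aligner and any use of strand are not given in the sources used here, so reads of overlapping genes cannot be told apart. In GENCODE M21, exons of Ptprd and Ptprg overlap exons of another gene on the opposite strand. The longest overlap of an exon pair is 7 bases for Ptprd and 50 for Ptprg. For Ptprm it is 457 bases, with a gene on its own strand. Whether those other genes were among the counted ones was not checked.

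Symbols were matched by Entrez identifier to RefSeq (GRCm38.p6) for 25260 of 27164 genes. Identifiers with no match held 2.56 to 2.86% of counts. After filterByExpr (minimum count 10), 16526 genes were tested with edgeR 4.0.16 (R 4.3.3): TMM scaling, population plus batch, robust quasi-likelihood F-test, two-sided, Benjamini-Hochberg adjustment over all genes, threshold 0.05, 3 residual degrees of freedom. All 10 phosphatases passed the filter. CPM used TMM-scaled totals, and RPKM also the deposited gene length. The 3-count floors cover counting error only. SDs hold the spread between the 2 libraries of a population, batch difference included. SEs were derived from the F-test of the fit with a batch term, whose estimate of spread draws on other genes. They can therefore be smaller than the disagreement between batches. The Lgr5 difference of Ptprz1, for example, was 0.33 in batch 1 and 0.83 in batch 2, beside an SE of 0.11. DESeq2 1.42.0, limma-voom (limma 3.58.1), other scalings and filters, no batch term and leaving out each library were alternatives.

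The replicate numbers are the batches in the labels, and libraries of the same batch deviated together from their population means (r of 0.415 to 0.55 over genes for the 6 pairs). Replicates differed beyond sampling noise (chi-square per degree of freedom 30.3 to 47.8). The phosphatases, the gene lists and the tests were chosen with earlier results of these data known. From each list, at most 4 genes per comparison were eligible to be named, those past the threshold with the smallest adjusted p. Likeness was measured for the 3 phosphatases of widest range, over named genes averaging 1 CPM or more.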

Additional observations from a re-analysis of the deposited data

Results flagged for a closer look

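Each of the following results is a difference between Lgr5+ and Lgr5- cells in the size of the T8hi to T8- difference, on the log2 scale. For Ptprd the interaction was -1.11, a smaller T8hi gain within Lgr5+ cells, given as a description. Among the other genes named, by edgeR's quasi-likelihood test, the interaction of Ptprc was 2.12 (adjusted p = 0.0107), beside immune marker sums that were highest in the Lgr5+T8hi library of each batch. That of Gpc3 was 0.77 (edgeR adjusted p = 0.0191), that of Enah -0.88 (adjusted p = 0.0282) and that of Nrcam -0.80 (adjusted p = 0.0481). All 5 calls were lost without the batch term. Ptprc was also lost without batch 2 of Lgr5+T8hi or of Lgr5+T8-, and Gpc3, Enah and Nrcam without 4, 6 and 6 of the 8 libraries in turn. Nrcam was also lost under RLE scaling, with no scaling factors, under the CPM filter and with DESeq2.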

How the results depend on the processing

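Without the batch term (no replicate block), the calls were fewer: 705 genes in place of 2421 for Tspan8, 219 in place of 1502 for Lgr5, 1 in place of 421 for the interaction and 487 in place of 2391 against Lgr5-T8- cells. Of the phosphatases, 2 in place of 5, 1 in place of 4, 0 in place of 1 and 3 in place of 5 were then called. Leaving out 1 library at a time gave 1428 (without batch 2 of Lgr5+T8hi) to 3374 genes for Tspan8, 726 (without batch 1 of Lgr5+T8hi) to 2618 for Lgr5, 119 (without batch 2 of Lgr5+T8hi) to 584 for the interaction, and 1403 (without batch 1 of Lgr5-T8-) to 3141 against Lgr5-T8- cells, each highest without batch 2 of Lgr5-T8-. The phosphatases called were then 3 to 5, 4 to 5, 0 to 1 and 4 to 5. The cause was not tested. These 8 counts stayed within 1.5 times under the other scalings, filters and tools, and no phosphatase or named gene changed direction where it was called. Precision is limited by 2 libraries per population and, for Ptprd and Ptprt, by the 54 to 122 counts of their lowest libraries.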
